A study of Mus musculus with 9 samples.

Results

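Adventitial fibroblasts are the connective tissue cells that sit in the outer sleeve of blood vessels and ducts. The 10 genes described here (Pi16, Mfap5, Clec3b, Dpt, Dcn, Lum, Pdgfra, Fbln1, Cd34 and Thy1) were chosen by gene symbol, from a list, in the table of 54532 genes. All 10 were found once and all 10 were among the 16836 genes that passed the filter on low counts. The list was proposed with the levels and genotype fold changes of these same libraries in view, so the genotype differences below are descriptions of the chosen genes and support nothing by themselves. Bulk RNA-seq was made from prostate tissue of mice that differ at Srd5a2, which encodes a steroid 5-alpha-reductase. KO mice carried the Srd5a2-/- (null) genotype, Het mice were Srd5a2+/- and WT mice carried 2 intact alleles, with 3 libraries per genotype and 9 in all. The line came from Het males bred to C57BL6 WT females, and the KO animals were males of the third generation. The labels name no driver that would limit the loss to stroma. The sources used here do not give age, prostate lobe or whether animals of different genotypes were littermates.

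The genes fall into a few roles. Dcn and Lum encode small leucine-rich proteoglycans that bind collagen fibrils, and Dpt encodes dermatopontin, a small matrix protein that binds decorin and collagen. Mfap5 encodes a glycoprotein of fibrillin microfibrils, and Fbln1 encodes fibulin 1, a glycoprotein of basement membranes and elastic fibres. Clec3b encodes tetranectin, a secreted lectin that binds plasminogen. Pi16 encodes a peptidase inhibitor-like surface protein and, together with Dpp4, marks fibroblasts of the adventitia in many mouse organs. Pdgfra encodes the alpha receptor for platelet-derived growth factor, Cd34 a sialomucin and Thy1 a GPI-anchored surface glycoprotein. Cd34 is also made by endothelium, and Thy1 by T cells and neurons. In the prostate, fibroblasts and smooth muscle surround the epithelial ducts and signal to them under androgen control, which is the setting in which the series places stromal SRD5A2.

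Total counts ran from 16233392 to 24017791 per library, and the 10 genes took 0.0213% to 0.0631% of them. Srd5a2 had 0.934, 0.512 and 1.15 normalised counts (CPM, counts scaled to a common library size) in KO libraries, 3.68, 5.19 and 2.37 CPM in Het libraries and 2.30, 5.504 and 8.81 CPM in WT libraries, so every KO library lay below every other library. The prostate secretory gene Pbsn was detected throughout, being the most abundant gene of an epithelial list whose 12 genes had counts in all 9 libraries. Het 2, WT 1 and WT 3 stood apart by almost lacking Sbp, a secretory gene of particular prostate lobes, with 7.26, 0.994 and 16.0 CPM, against 34372 to 143989 CPM in the other 6 libraries. Genes detected at equal depth numbered 20098, 20380 and 20338 in KO libraries, 17756, 17154 and 16845 in Het libraries and 20394, 19622 and 17877 in WT libraries. Skeletal muscle markers (15 genes) summed to 797, 6315 and 1153 CPM in KO libraries and 145, 689 and 581 CPM in Het libraries. In WT libraries they summed to 351, 684 and 1431 CPM, so every KO library lay above every Het library. Seminal vesicle secretion genes (8 genes) summed to 6593 CPM in Het 1 and to 31140 to 359170 CPM in the other libraries. Whether these differences took part in the values below was not tested.

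Decorin was the gene with the most reads of the 10, most of the 10 genes had their lowest levels in Het prostates, and 8 of the 10 overlapped between KO and WT libraries. Of the fold changes, 9 of 10 were above 0 in KO against WT, where 50.6% of all genes tested were. In Het against WT 9 of 10 were below 0, where 50% of all genes were, and in KO against Het 10 of 10 were above 0, where 52% of all genes were. The lowest of the 9 libraries was a Het library for every gene. The highest was KO 1 for 8 genes and WT 2 for Pi16 and Mfap5. How often the same libraries were lowest or highest over all genes tested was not counted, so these counts only describe the members. In whole tissue, fewer fibroblasts and less RNA of these genes per fibroblast cannot be told apart.

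Levels can be set between genes only per length, for which the deposited FPKM values were used (reads scaled for gene length and for library size). In KO libraries Clec3b averaged 37.1 ± 18.3 FPKM, Dcn 34.2 ± 6.43 FPKM and Dpt 28.4 ± 9.62 FPKM (SD, n = 3 each). In Het libraries Dcn stood alone at 19.9 ± 1.93 FPKM, with every library above the next gene, Dpt, at 10.8 ± 6.001 FPKM. Clec3b followed at 7.95 ± 1.14 FPKM. In WT libraries the same 3 genes led as in KO libraries, with Clec3b at 29.6 ± 6.92 FPKM, Dcn at 26.9 ± 8.17 FPKM and Dpt at 21.3 ± 4.70 FPKM, and in these 2 genotypes the ranges of neighbouring genes among these overlapped. The other 7 genes ranged by mean from Pdgfra at 1.91 FPKM to Fbln1 at 11.2 FPKM in KO, from Mfap5 at 0.688 FPKM to Thy1 at 7.28 FPKM in Het, and from Pdgfra at 1.45 FPKM to Pi16 at 7.53 FPKM in WT. In KO and in WT the 3 leading genes stood above the fourth gene without overlap. Below them, most neighbours in the order had overlapping ranges. The exceptions were Mfap5 above Pdgfra in KO, Pi16 above Cd34 in Het, and Cd34 above Pdgfra in WT. Pi16 was the fourth gene in WT and the seventh in KO and in Het.

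**Figure D1:**
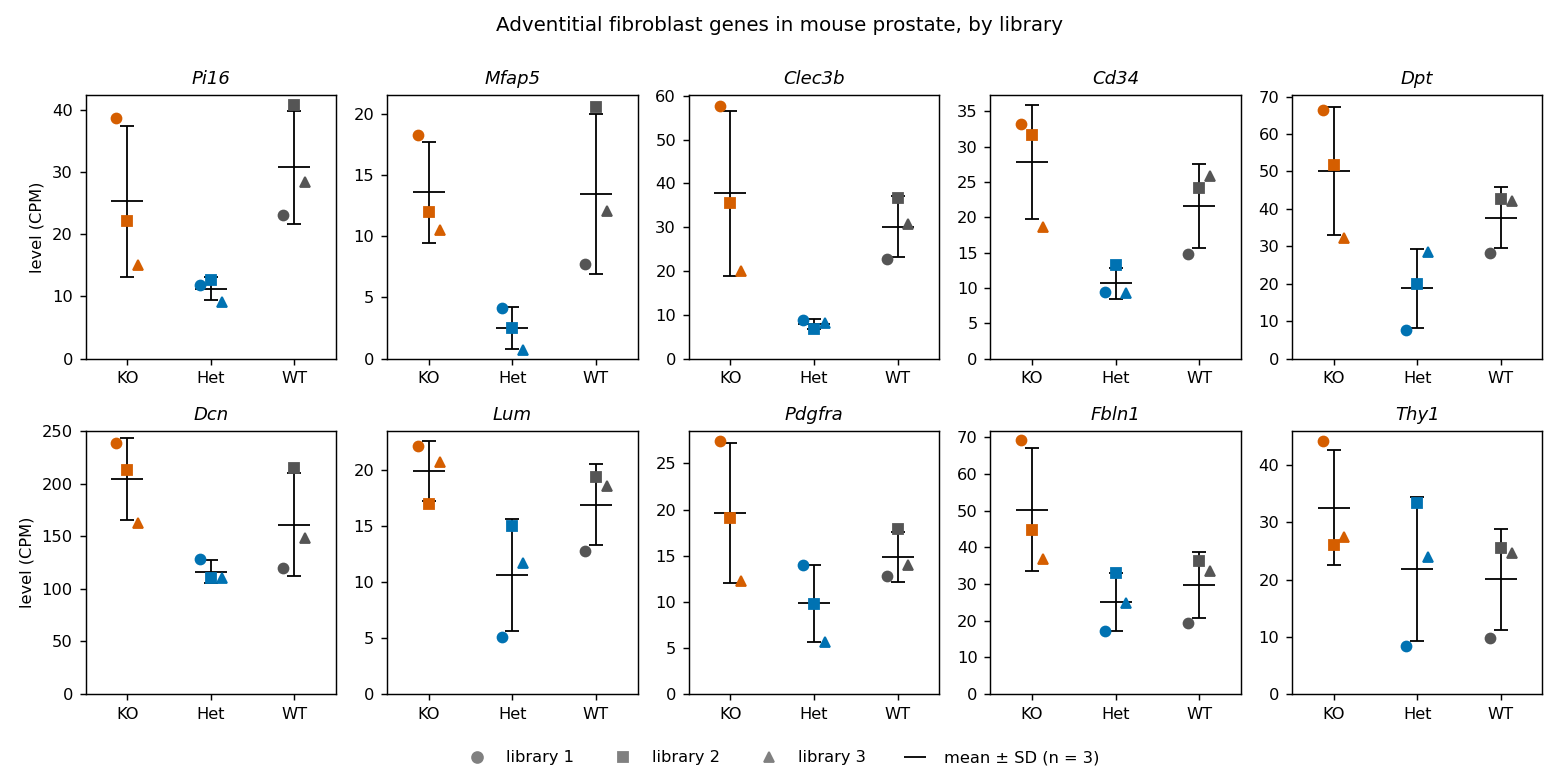
CPM of each of the 10 genes (linear axes that start at 0) in each library of the KO, Het and WT groups, with 1 point per library and lines for the mean ± SD (n = 3). The Het points of Pi16, Mfap5, Clec3b and Cd34 lie below every WT point, and those of Thy1 spread from below every WT point to above 2 of the 3 KO points.

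Pi16, Mfap5, Clec3b and Cd34 had Het libraries wholly below WT libraries. Clec3b (ENSMUSG00000025784, GRCm38 chr9:123150946-123157432, plus strand) had 57.6, 35.4 and 20.1 CPM in KO libraries, 8.86, 6.66 and 8.22 CPM in Het libraries and 22.8, 36.8 and 30.7 CPM in WT libraries. All 3 Het libraries lay close together and under the other 6, while the KO libraries spanned the WT range. Its log2 fold change was 0.32 (SE 0.34) in KO against WT, -1.93 (SE 0.36, 95% interval -2.73 to -1.13) in Het against WT and 2.25 (SE 0.36, 1.44 to 3.06) in KO against Het.

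Pi16 (ENSMUSG00000024011, GRCm38 chr17:29318877-29329413, plus strand) had 38.7, 22.1 and 15.1 CPM in KO libraries, 11.8, 12.7 and 9.16 CPM in Het libraries and 23.1, 40.8 and 28.4 CPM in WT libraries. The Het libraries were the lowest 3, and KO 2 and KO 3 lay below all WT libraries. The fitted log2 fold change was -0.28 (SE 0.34) in KO against WT, -1.45 (SE 0.35, -2.24 to -0.67) in Het against WT and 1.17 (SE 0.35) in KO against Het. It was the member whose KO against WT fold change was below 0.

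Mfap5 (ENSMUSG00000030116, GRCm38 chr6:122505845-122529290, plus strand) had the widest spread, with 18.3, 11.9 and 10.5 CPM in KO libraries, 4.16, 2.53 and 0.717 CPM in Het libraries and 7.69, 20.5 and 12.1 CPM in WT libraries. The lowest value, in Het 3, rests on 13 reads, and the Het libraries held 77, 55 and 13 reads. Its log2 fold change was 0.02 (SE 0.56) in KO against WT, -2.44 (SE 0.59, -3.77 to -1.11) in Het against WT and 2.46 (SE 0.59) in KO against Het. The KO against WT value is near 0 and its sign turned when KO 1, Het 2, WT 1 or WT 3 was left out.

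Cd34 (ENSMUSG00000016494, GRCm38 chr1:194938819-194961279, plus strand) had 33.3, 31.7 and 18.6 CPM in KO libraries, 9.46, 13.2 and 9.33 CPM in Het libraries and 14.8, 24.1 and 25.9 CPM in WT libraries. The gap between the highest Het and the lowest WT library was small, and all KO libraries stood above Het. On the log2 scale the fold change was 0.37 (SE 0.30) in KO against WT, -1.02 (SE 0.30) in Het against WT and 1.38 (SE 0.30) in KO against Het. An antisense gene, Gm16897, overlaps Cd34 and held 84 reads over the 9 libraries, against 3475 for Cd34. The sources used here do not say whether counting used strand, so reads of these 2 genes cannot be told apart.

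Cd34 moved beside the endothelial genes. The 15 endothelial markers without Cd34 summed to 207, 249.8 and 126 CPM in KO libraries, 68.6, 87.7 and 86.7 CPM in Het libraries and 105, 152 and 176 CPM in WT libraries. Of the 14 tested, 13 had a fold change above 0 in KO against Het and 14 had one below 0 in Het against WT. The medians were 1.46 and -1.06 on the log2 scale. In KO against Het, 12 were higher at an unadjusted p under 0.05 (4.42% of all genes). There 10 were higher without overlap (7.8%), and DESeq2 called 4 higher (0.928%). In Het against WT, 6 were lower at an unadjusted p under 0.05 (5.61% of all genes). There 4 were lower without overlap (8.59%), and DESeq2 called 4 lower (0.899%). The share of endothelium in the Cd34 values was not tested.

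The proximal promoters of Pi16 and Cd34 are shown because these 2 genes shared low Het levels, and the second start of Fbln1 is shown as the member promoter whose start is flanked by GC boxes. RefSeq sequences (GRCm38.p6, plus strand, 250 bases before to 50 after the annotated start) were found for 5 of the 10 genes, namely Pi16, Dpt, Pdgfra, Fbln1 and Cd34, with 2 starts for Fbln1. The windows are chr17:29318632-29318931 for Pi16, chr1:194938571-194938870 for Cd34 and chr15:85205758-85206057 for Fbln1. Capitals mark a match, on either strand, to the letters CCAAT, known as the CCAAT box, to TGTTCT, a core element that steroid receptors bind, or to GGGCGG, the GC box.
Pi16: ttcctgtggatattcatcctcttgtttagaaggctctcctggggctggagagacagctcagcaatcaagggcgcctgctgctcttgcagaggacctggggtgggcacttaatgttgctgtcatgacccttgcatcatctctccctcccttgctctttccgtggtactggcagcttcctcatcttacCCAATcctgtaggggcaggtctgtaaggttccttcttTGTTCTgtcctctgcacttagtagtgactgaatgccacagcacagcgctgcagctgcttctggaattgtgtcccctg
Cd34: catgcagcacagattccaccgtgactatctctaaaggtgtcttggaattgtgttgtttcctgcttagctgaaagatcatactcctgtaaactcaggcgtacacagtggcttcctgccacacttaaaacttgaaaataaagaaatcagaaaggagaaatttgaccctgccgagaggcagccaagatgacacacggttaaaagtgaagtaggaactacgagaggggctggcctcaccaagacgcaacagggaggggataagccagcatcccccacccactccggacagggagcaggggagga
Fbln1: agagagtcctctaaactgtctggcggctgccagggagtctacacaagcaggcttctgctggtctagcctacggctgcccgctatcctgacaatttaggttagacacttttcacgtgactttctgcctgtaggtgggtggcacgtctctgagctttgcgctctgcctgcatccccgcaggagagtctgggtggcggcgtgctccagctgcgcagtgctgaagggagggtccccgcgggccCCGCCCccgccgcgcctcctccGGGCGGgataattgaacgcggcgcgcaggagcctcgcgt

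The Pi16 window held a CCAAT box at -64 and the steroid receptor letters at -27, counted to the first base of the match, with the annotated start as 1. The Cd34 window held none of the 6 motifs searched. Besides those above, they were TATAAA, the core promoter box of that name, GGAATG, which TEAD factors bind, and TGANTCA, bound by AP-1. Both strands were searched. The second Fbln1 start had a GC box on the minus strand at -11 and one on the plus strand at 12. Among the other windows, Dpt held the TATA letters at 13 and the first Fbln1 start held the steroid receptor letters at -219. These short motifs are common. Of 27018 mouse promoters of the same length, 1 per gene, 37.9% held the CCAAT box, 35.9% the GC box, 19.0% the steroid receptor letters, 14.6% the TEAD motif, 14.2% the TATA box and 7.9% the AP-1 motif. The G and C content was 53.3% for Pi16, 50% for Cd34 and 64.0% for the second Fbln1 start, beside a median of 52.7% over all promoters. The second Fbln1 window held 24 CG pairs, the Cd34 window 7 and the Pi16 window 3.

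Dpt, Dcn and Lum, the collagen-binding group, were lower in Het libraries than in KO libraries without overlap, and overlapped between Het and WT. Dpt (ENSMUSG00000026574, GRCm38 chr1:164796644-164824266, plus strand) had 66.5, 51.8 and 32.2 CPM in KO libraries, 7.62, 20.04 and 28.5 CPM in Het libraries and 28.2, 42.6 and 42.1 CPM in WT libraries. Het 3 just exceeded WT 1. The fitted log2 fold change was 0.41 (SE 0.44) in KO against WT, -1.01 (SE 0.45) in Het against WT and 1.42 (SE 0.45) in KO against Het.

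Dcn (ENSMUSG00000019929, GRCm38 chr10:97479609-97518143, plus strand) had 239, 213 and 162 CPM in KO libraries, 129, 111 and 110.0 CPM in Het libraries and 119.9, 215 and 148 CPM in WT libraries. Het libraries were close to each other, and WT 1 lay among them. Its log2 fold change was 0.35 (SE 0.22) in KO against WT, -0.47 (SE 0.22) in Het against WT and 0.81 (SE 0.22) in KO against Het.

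Lum (ENSMUSG00000036446, GRCm38 chr10:97565128-97572703, plus strand) had 22.2, 17.0 and 20.8 CPM in KO libraries, 5.13, 14.98 and 11.7 CPM in Het libraries and 12.8, 19.4 and 18.6 CPM in WT libraries. WT 1 fell inside the Het range. On the log2 scale the fold change was 0.24 (SE 0.36) in KO against WT, -0.67 (SE 0.36) in Het against WT and 0.91 (SE 0.36) in KO against Het. Dcn and Lum are neighbours on the same strand, 47.0 kb apart with 0 annotated genes between them. The next genes of that proteoglycan cluster, Kera and Epyc, had 11 and 66 reads in all 9 libraries together, against 27979 for Dcn and 2772 for Lum.

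Fbln1 and Thy1 were the genes whose KO libraries all lay above WT, and neither separated Het from WT. Fbln1 (ENSMUSG00000006369, GRCm38 chr15:85205949-85286535, plus strand) had 69.2, 44.8 and 36.9 CPM in KO libraries, 17.3, 33.0 and 24.9 CPM in Het libraries and 19.5, 36.3 and 33.5 CPM in WT libraries. KO 3 exceeded WT 2 by a small margin. Its log2 fold change was 0.76 (SE 0.33, 0.03 to 1.48) in KO against WT, -0.25 (SE 0.33) in Het against WT and 1.004 (SE 0.33) in KO against Het.

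Thy1 (ENSMUSG00000032011, GRCm38 chr9:44043384-44048579, plus strand) had 44.3, 26.1 and 27.5 CPM in KO libraries, 8.43, 33.3 and 24.0 CPM in Het libraries and 9.83, 25.6 and 24.7 CPM in WT libraries. Het 1 and WT 1 were far below the other 7, and the KO against WT margin was narrow. The fitted log2 fold change was 0.70 (SE 0.51) in KO against WT, 0.13 (SE 0.51) in Het against WT and 0.57 (SE 0.51) in KO against Het. Of the other cells that make Thy1, 12 T cell markers summed to 6.03 to 7.53 CPM in KO libraries, 2.70 to 5.65 CPM in Het libraries and 4.71 to 7.46 CPM in WT libraries. The 10 neuronal markers, led by Uchl1 and Prph, summed to 58.9, 319 and 196 CPM in KO libraries, 7.41, 313 and 198 CPM in Het libraries and 79.2, 39.5 and 12.1 CPM in WT libraries. Het 1 was thus low for both Thy1 and the neuronal genes, whereas WT 1 was the highest WT library for the neuronal genes and the lowest for Thy1. Het 1 and WT 1 were also the lowest libraries for smooth muscle, with 1382 CPM summed over 12 genes in Het 1 and 3654 CPM in WT 1, against 4962 to 8803 CPM in the other 7. The part of any of these cells in the Thy1 values was not tested.

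Pdgfra (ENSMUSG00000029231, GRCm38 chr5:75152292-75198215, plus strand) had 27.5, 19.1 and 12.2 CPM in KO libraries, 14.0, 9.74 and 5.68 CPM in Het libraries and 12.8, 17.9 and 13.9 CPM in WT libraries. Ranges overlapped between every pair of genotypes. Its log2 fold change was 0.40 (SE 0.38) in KO against WT, -0.60 (SE 0.38) in Het against WT and 0.998 (SE 0.38) in KO against Het.

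**Figure D2:**
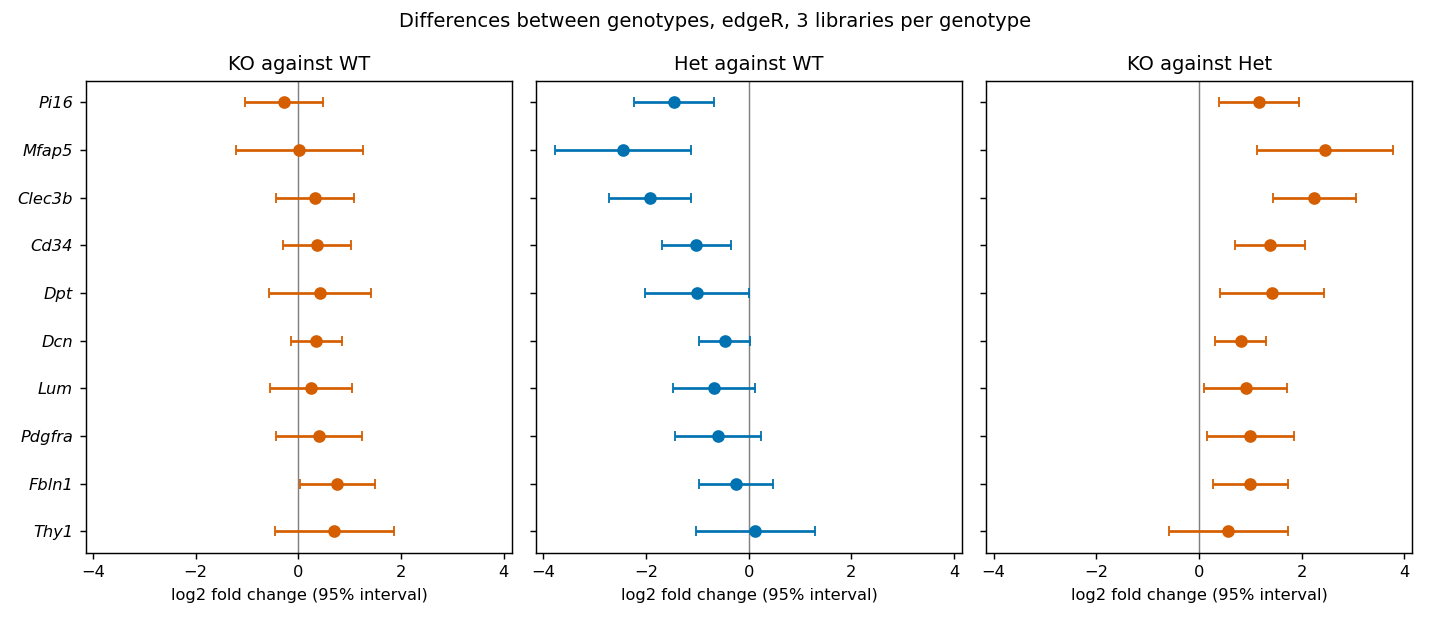
Log2 fold change of each gene with its 95% interval from edgeR, for KO over WT, Het over WT and KO over Het, with a line at 0. KO against Het values run from 0.57 for Thy1 to 2.46 for Mfap5, and KO against WT values from -0.28 for Pi16 to 0.76 for Fbln1.

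In KO against WT, the members' median log2 fold change was 0.36, beside 0.01 over all 16836 genes. The edgeR quasi-likelihood test called 0 of the 10 after Benjamini-Hochberg adjustment over all genes, and 0% of all genes. At an unadjusted p under 0.05 it had 1 member higher, Fbln1, against 2.2% of all genes. DESeq2 called 0 members and 0.085% of all genes. Srd5a2 itself, at a log2 fold change of -2.67 (SE 0.62), was not called by edgeR (adjusted p = 0.9996). DESeq2 did call it (adjusted p = 0.0397). With 3 libraries per genotype, 0 calls by edgeR therefore do not show that a gene is unchanged. KO libraries lay wholly above WT for 2 members, Fbln1 and Thy1, against 8.14% of all genes. Without KO 3 that number was 5, against 13% of all genes in the same libraries. Without the 3 libraries low in Sbp the members' median was 0.09. Leaving out 1 library turned the sign of Mfap5 (4 of the 9 libraries), of Clec3b (KO 1) or of Pi16 (WT 2).

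In Het against WT, the members' median was -0.84, beside -3.02e-04 over all genes. EdgeR called 0 members after adjustment (0% of all genes) and had 4 lower at an unadjusted p under 0.05 (Pi16, Mfap5, Clec3b and Cd34), where 5.61% of all genes were lower. DESeq2 called Clec3b, Mfap5 and Pi16 lower, with adjusted p of 8.16e-04, 0.0117 and 0.0280, where 0.899% of all genes were called lower. Limma voom with quality weights called the same 3 genes lower, where 3.43% of all genes were. Without those weights, voom called 0 members and 0% of all genes. Het libraries lay wholly below WT for 4 members, Pi16, Mfap5, Clec3b and Cd34, against 8.59% of all genes. That number was 8 without WT 1, against 12.9% of all genes in the same libraries. Without the 3 libraries low in Sbp, which left 1 WT library, assumed to vary like the other groups, the members' median was -1.23.

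In KO against Het, the members' median was 1.09, beside 0.02 over all genes. EdgeR called 0 members after adjustment (0% of all genes) and had 9 higher at an unadjusted p under 0.05, all but Thy1, where 4.42% of all genes were higher. DESeq2 called Clec3b, Mfap5 and Cd34 higher, with adjusted p of 1.63e-05, 0.00981 and 0.0133, where 0.928% of all genes were called higher. Limma voom, with or without quality weights, called 0 members and 0% of all genes. KO libraries lay wholly above Het for 8 members, all but Pdgfra and Thy1, against 7.8% of all genes. The members' median was 1.27 without the 3 libraries low in Sbp. The 3 comparisons share libraries with each other, so their values for a gene are not separate evidence.

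Dividing each gene by Dcn in the same library shows how the genes stood relative to one abundant fibroblast transcript. Most members kept overlapping genotypes on this scale, and Pi16, Mfap5 and Clec3b did not. Pi16 had 162, 104 and 93.1 counts per 1000 Dcn counts in KO libraries, 91.9, 115 and 83.2 in Het libraries, and 193, 189 and 192 in WT libraries. The 3 WT libraries were within a few counts of each other, and all KO and all Het libraries lay below them.

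Mfap5 had 76.6, 56.1 and 64.8 counts per 1000 Dcn counts in KO libraries, 32.3, 22.8 and 6.52 in Het libraries and 64.1, 95.2 and 81.6 in WT libraries. Clec3b had 241, 166 and 124 in KO libraries, 68.8, 60.2 and 74.7 in Het libraries and 190.1, 171 and 207 in WT libraries. For both, Het lay below KO and WT, and KO overlapped WT. Among 9 members with a ratio to Dcn, 3 were lower in Het than in WT without overlap, against 2.04% of all genes. In KO, 2 were higher than in Het, against 1.88%, and 1 was lower than in WT, against 8.62%. Dcn is itself a member and was higher in KO than in Het, so dividing by it shifts all genes the other way. Per Dcn count, 39.8% of all genes were lower in KO than in Het and 11.3% were higher in Het than in WT. The shares of all genes therefore depend on the denominator, and the members' counts beside them are descriptions only.

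With the summed counts of 27 other general fibroblast genes as the denominator, Pi16 had 9.99, 6.72 and 5.46 counts per 1000 in KO libraries, 6.69, 5.61 and 4.45 in Het libraries and 14.5, 11.996 and 9.94 in WT libraries. KO 1 then narrowly exceeded WT 3, so the separation of KO from WT depended on the denominator. On that scale 4 members (Pi16, Mfap5, Clec3b and Cd34) were lower in Het than in WT without overlap, against 2.01% of all genes. Mfap5, Clec3b and Cd34 were higher in KO than in Het, making 3 members against 2.12%. Fbln1 was higher in KO than in WT, making 1 against 2.32%. This denominator shifts all genes as well, with 35.7% of them lower in KO than in Het, so these shares depend on it too.

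**Figure D3:**
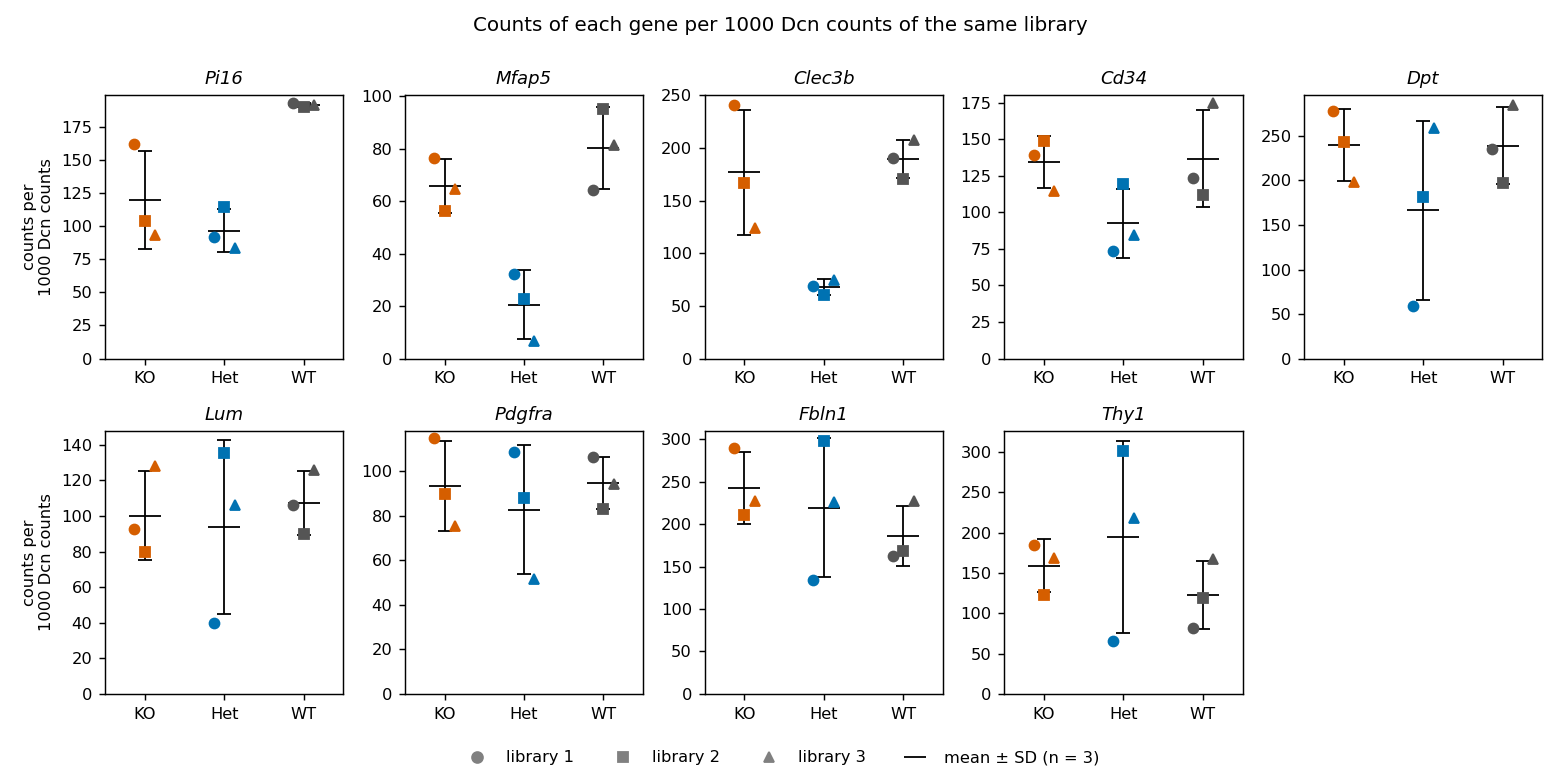
Counts per 1000 Dcn counts for the other 9 genes in each library (linear axes that start at 0), by genotype, with the mean ± SD (n = 3). The WT points of Pi16 sit together at 189 to 193, above all KO and Het points, and the Het points of Mfap5 and Clec3b lie below the other genotypes.

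Across libraries the genes rose and sank together to different degrees. Over the 45 pairs, Pearson r of log2 CPM over the 9 libraries ran from 0.20 to 0.92 with a median of 0.79, and Spearman rho from 0.22 to 0.93. The points share libraries, scaling and the low Het group. With each genotype centred on its own mean, r ran from -0.38 to 0.95 with a median of 0.56, and 38 of 45 pairs were above 0. Clec3b with Cd34 (0.92) and Pi16 with Clec3b (0.91) were the most alike. Thy1 was the least alike, with a median r of 0.48 over its 9 pairs, beside 0.81 over the 36 pairs without it. Its r was 0.20 with Mfap5 and with Pdgfra, yet 0.89 with Fbln1.

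**Figure D4:**
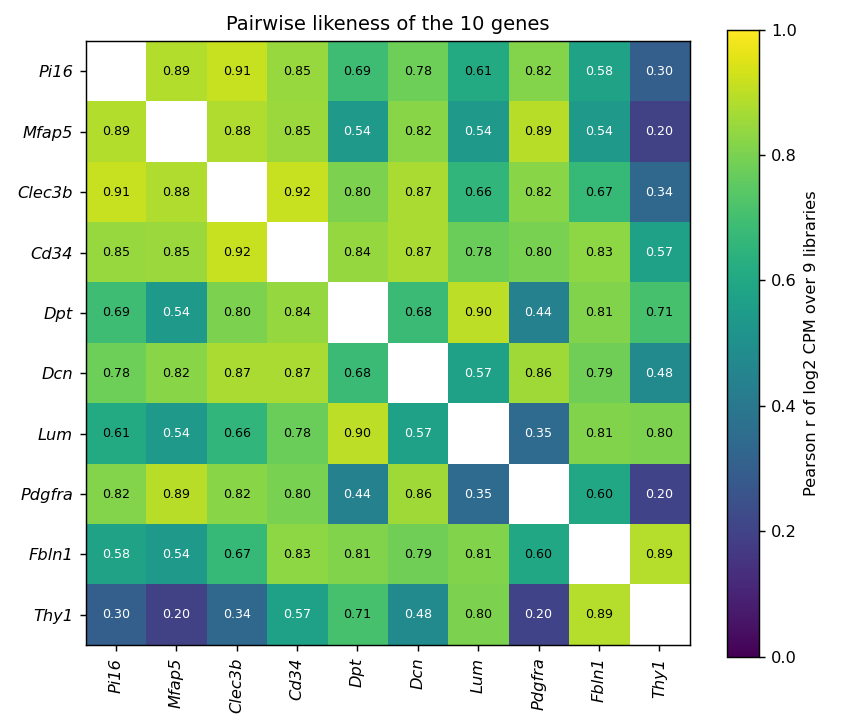
Pearson r of log2 CPM over the 9 libraries for each pair of the 10 genes. The Clec3b, Cd34 and Pi16 cells are among the highest, and the Thy1 row runs from 0.20 with Mfap5 to 0.89 with Fbln1.

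Among other genes of adventitial fibroblasts, most fold changes ran below 0 in Het against WT and above 0 in KO against Het, and those in KO against WT were of mixed sign. Of 21 tested out of 22, 19 had a fold change below 0 in Het against WT and 19 one above 0 in KO against Het, with medians of -0.61 and 0.76, while KO against WT had 12 above 0 and a median of 0.02. None was called by edgeR in any comparison. At an unadjusted p under 0.05, 7 were lower in Het against WT (5.61% of all genes) and 6 were higher in KO against Het (4.42%). In KO against WT 0 passed (3.57% of all genes). Emilin2, an elastic fibre glycoprotein, had 3.68, 2.22 and 1.05 CPM in KO libraries, 0, 0 and 0.386 CPM in Het libraries and 2.30, 5.02 and 2.13 CPM in WT libraries. DESeq2 called Emilin2 in Het against WT (adjusted p = 0.0101) and in KO against Het (adjusted p = 0.0264), and it called no other gene of that list. Tnxb, which encodes a tenascin of connective tissue, had a log2 fold change of 1.15 (SE 0.32) and Anxa3, an annexin, 0.99 (SE 0.29) in KO against Het. In KO against WT, Anxa3 had 0.56 (SE 0.29), Col14a1, a fibril-associated collagen, 0.61 (SE 0.35) and Ackr3, a scavenging chemokine receptor, -0.38 (SE 0.23).

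The matrix partners of Mfap5 and Fbln1 were examined next. Of 15 microfibril and elastic fibre genes, 13 had a fold change above 0 in KO against WT, 9 one below 0 in Het against WT and 14 one above 0 in KO against Het, with medians of 0.37, -0.32 and 0.68. EdgeR and DESeq2 called 0 of them in each comparison. At an unadjusted p under 0.05, 4 were higher in KO against Het (4.42% of all genes) and 0 passed in KO against WT (3.57%). In Het against WT 1 was higher (3.43% of all genes) and 1 lower (5.61%), so near the share of all genes. Ltbp4, a latent TGF-beta binding protein, had 204, 204 and 164 CPM in KO libraries, 70.2, 119 and 93.5 CPM in Het libraries and 86.5, 160.4 and 169 CPM in WT libraries. Its KO libraries all lay above Het, with a log2 fold change of 1.02 (SE 0.27). In KO against Het, Fbn1, the fibrillin that forms the microfibril backbone, had 1.21 (SE 0.42) and Efemp1, a fibulin, 1.17 (SE 0.43). Ltbp1 ran otherwise, with 0.62 (SE 0.37) in KO against WT and 0.90 (SE 0.37) in Het against WT, and Mfap2, a microfibril glycoprotein, had 1.27 (SE 0.59) in KO against WT at low levels of 2.35 to 5.86 CPM in KO libraries and 1.04 to 2.44 CPM in WT libraries.

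Among 11 tested of 13 further small leucine-rich proteoglycan genes, 9 had a fold change above 0 in KO against WT, 7 one below 0 in Het against WT and 10 one above 0 in KO against Het, and edgeR and DESeq2 called 0. At an unadjusted p under 0.05, 1 was higher in KO against Het (4.42% of all genes) and 2 were lower in Het against WT (5.61%). In KO against WT 0 passed (3.57% of all genes). Bgn, biglycan, the closest relative of decorin, had 178, 135 and 115 CPM in KO libraries, 54.4, 123 and 98.5 CPM in Het libraries and 54.0, 130.5 and 125 CPM in WT libraries, with a log2 fold change of 0.47 (SE 0.38) in KO against WT. It was low in Het 1 and WT 1, as Thy1 was. Ecm2 had 2.01 (SE 0.60) and Podn 1.32 (SE 0.60) in KO against Het. Epyc had 0 reads in every Het library and in WT 1, and only 0.055 and 0.057 CPM in KO 1 and KO 2. Its highest level was 1.51 CPM, in WT 2.

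Of the 5 other PDGF genes, edgeR and DESeq2 called 0, and none had an unadjusted p under 0.05. Their medians were 0.36 in KO against WT, -0.07 in Het against WT and 0.48 in KO against Het. Pdgfrb, the beta receptor, which pericytes carry as well, had 13.2, 13.3 and 5.70 CPM in KO libraries, 2.11, 9.19 and 4.97 CPM in Het libraries and 4.81, 5.86 and 6.43 CPM in WT libraries, so that the genotypes overlapped. Pdgfa, a ligand of the alpha receptor made largely by epithelium, had a log2 fold change of 0.35 (SE 0.21) in KO against WT and 0.14 (SE 0.21) in KO against Het.

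Fibroblast genes at large also had most fold changes below 0 in Het against WT. Of 27 general fibroblast genes, 25 had a fold change above 0 in KO against WT, 23 one below 0 in Het against WT and 25 one above 0 in KO against Het, with medians of 0.36, -0.49 and 0.77. EdgeR called 0 in each comparison. At an unadjusted p under 0.05, 10 were higher in KO against Het (4.42% of all genes) and 2 were lower in Het against WT (5.61%). In KO against WT 1 was higher (2.2% of all genes). Col5a1, a minor fibrillar collagen chain, had 38.6, 33.2 and 27.8 CPM in KO libraries, 11.999, 12.5 and 12.1 CPM in Het libraries and 13.5, 32.4 and 20.8 CPM in WT libraries, and DESeq2 called it in KO against Het (adjusted p = 0.00611). Mgp, matrix Gla protein, had a log2 fold change of 1.296 (SE 0.35) and Mmp2, a gelatinase, 1.304 (SE 0.38) in KO against Het. Tcf21, a fibroblast transcription factor, had 0.88 (SE 0.41) and Timp2, a metalloproteinase inhibitor, 0.51 (SE 0.23) in KO against WT. Whether the members differ from these genes was not tested.

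Among genes of prostate fibroblast subsets other than Srd5a2, C3, a complement gene, had 53.7, 42.6 and 42.5 CPM in KO libraries, 24.1, 31.7 and 48.6 CPM in Het libraries and 58.0, 60.7 and 63.3 CPM in WT libraries. Both KO and Het lay wholly below WT, as did 6.04% of all genes in KO and 8.59% in Het. The C3 log2 fold change was -0.39 (SE 0.23) in KO against WT and -0.80 (SE 0.24) in Het against WT. Lgr5 had 0.36 (SE 0.46) in KO against WT and 1.12 (SE 0.47) in KO against Het. With Srd5a2 included, 5 of the 6 listed genes were tested. Of these, 3 had a fold change above 0 in KO against WT and 4 one below 0 in Het against WT. In KO against Het 4 were above 0. The medians were 0.06, -0.56 and 0.41.

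Markers of other stromal and vascular cells were set beside the members by a score. A list's score in a library is the average log2 CPM of its tested genes, centred to 0 across all 9 libraries. The members' score was 1.02, 0.52 and 0.12 in KO libraries, -0.96, -0.50 and -0.89 in Het libraries and -0.24, 0.60 and 0.34 in WT libraries. The endothelial score was 0.79, 1.06 and 0.11 in KO libraries, -1.30, -0.65 and -0.74 in Het libraries and -0.26, 0.41 and 0.59 in WT libraries, with Het lowest as for the members. The smooth muscle score was 0.37, 0.04 and -0.13 in KO libraries, -1.92, 0.74 and 0.79 in Het libraries and -0.47, 0.20 and 0.39 in WT libraries, so that 2 Het libraries were the highest of all. The macrophage score was also lowest in Het libraries, at -0.29, -0.28 and -0.94, with KO 3 next at -0.16. So was that of the other adventitial genes, at -0.72, -0.52 and -0.46, with KO 3 next at -0.24. The 10 macrophage genes had medians of -0.16 in KO against WT, -0.85 in Het against WT and 0.69 in KO against Het. The 12 epithelial genes had medians of 0.05 in KO against WT, 0.06 in Het against WT and -0.03 in KO against Het. In Het against WT 7 of them were above 0. Pbsn, the most abundant, was called lower there by DESeq2 (log2 fold change -1.45, adjusted p = 0.0370), as were 0.899% of all genes. Part of any other cell type in the members' values was not tested.

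**Figure D5:**
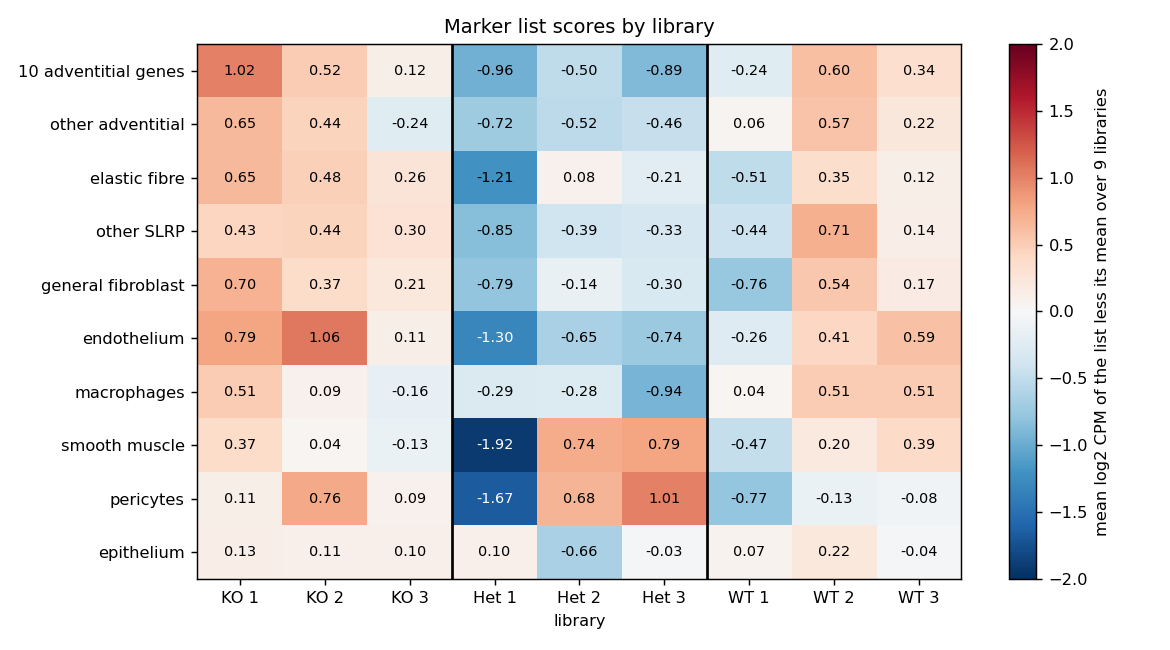
Score of each gene list (average log2 CPM of its genes, centred to 0 across libraries) in each library, by genotype. The members and the other adventitial, endothelial and macrophage genes are lowest in the 3 Het libraries. General fibroblast genes are about as low in WT 1 (-0.76) as in Het 1 (-0.79). Smooth muscle genes are highest in Het 2 and Het 3 and lowest in Het 1.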

How the data were processed

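Per the labels' protocols, a Qiagen kit was used for RNA, followed by polyA enrichment and cDNA inserts of 250 to 300 bp. The authors deposited whole-number read counts per gene, not normalised, and FPKM values per library. The deposited FPKM are the counts over gene length and over 0.907 to 1.10 times each library's total. Per the submitters' processing notes, GRCm38 (mm10) was the genome. The sources used here name no aligner, counter or strand setting. Genotypes came from the library names, and replicate numbers only name libraries, in the order of their accessions. It is not stated whether each library is its own animal, and the spread between libraries that p-values use may be technical.

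A robust quasi-likelihood model in edgeR 4.0.16 (R 4.3.3) was fitted to the counts of all 9 libraries, with genotype as the only term, TMM scaling, the filterByExpr filter (16836 of 54532 genes) and Benjamini-Hochberg adjustment at 0.05 over all genes tested. A standard error is the size of the log2 fold change over the square root of F, and intervals are at 95%. CPM use TMM-scaled library sizes, and scores and correlations use log2 CPM with a prior count of 2. No library duplicated another (chi-square per degree of freedom of at least 43.6 for every pair). The scripts were tested on simulated data.

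The members, the gene lists and the tests were chosen with earlier results of these data known. No list was tested as a set. Besides the members and Srd5a2, genes named are, for each fibroblast-related list, the 3 with the smallest p in KO against WT and in KO against Het, the 2 most abundant genes of other cell types, and genes most alike by Pearson r. Some of these were left out for space, and genes outside that rule were named after seeing their values. Alternatives were DESeq2 1.42.0, limma 3.58.1 voom with and without quality weights, other scalings and filters, fits of only the 2 genotypes compared, marker scores as covariates, and leaving out libraries. Non-overlap counts under other scalings, the same counts in FPKM, and the ratios to Dcn and to 27 fibroblast genes were added after the data were seen.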

Additional observations from a re-analysis of the deposited data

How the results depend on the processing

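EdgeR called 0 of the 10 genes in each comparison. DESeq2 called 3 in Het against WT (1.22% of all genes) and 3 in KO against Het (1.01%), and voom with quality weights called 3 in Het against WT (of 699 genes, 4.15% of those tested). In the other comparisons the weighted voom called 0 of all genes. Voom without weights called 0 of all genes in every comparison. Leaving out 1 library gave 0 to 1 called in Het against WT, the 1 being Mfap5 without Het replicate 1, a fit that called 258 of 17542 genes (1.47%). The members' median ran over those fits from 0.16 to 0.60 in KO against WT, -1.05 to -0.69 in Het against WT and 0.78 to 1.32 in KO against Het. Members without overlap numbered 4 to 8 for lower in Het than in WT (8 without WT 1), where the same libraries gave 8.59% to 18.8% of all genes, and 8 to 9 for higher in KO than in Het, where all genes gave 7.8% to 19.2%. For higher in KO than in WT they numbered 2 to 5 (5 without KO 3; all genes 8.14% to 15.9%), and for lower in KO than in WT 0 to 1 (1 without KO 1; all genes 6.04% to 13.5%). Without the 3 libraries low in Sbp, the Het against WT median was -1.23, 10 members lay wholly below WT in Het (33.3% of all genes) and 2 in KO (25.8%), with 1 WT library left. The cause was not tested.

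Signs turned for few values. With voom quality weights, Mfap5 was at -0.11 in KO against WT and C3 at -0.0138 in KO against Het. With a seminal vesicle score as covariate, KO against WT gave -0.00501 for Dpt, -0.27 for Lum and -0.25 for Pdgfb, Het against WT gave 0.13 for Fbln1, and KO against Het gave -0.0456 for Lum, -0.80 for Thy1, -0.46 for Pdgfb and -0.0677 for Pdgfc. With a skeletal muscle score, KO against WT gave -0.00444 for Ecm2 and -0.18 for Pdgfb, and KO against Het gave -0.00145 for Pdgfb. That score was 1.59, 5.49 and 2.66 in KO libraries and -2.84, -2.03 and -2.06 in Het libraries. The seminal vesicle score was 2.56, 2.62 and 3.57 in KO libraries and -6.57, 0.01 and -2.49 in Het libraries. For both scores every KO library lay above every Het library. Score and genotype therefore cannot be told apart in KO against Het for either covariate. In KO against WT, leaving out 1 library gave Mfap5 -0.26 to 0.49, below 0 without KO replicate 1 (-0.26), WT replicate 1 (-0.26), WT replicate 3 (-0.06) or Het replicate 2 (-0.00491), and it was at -0.59 without the libraries low in Sbp. Clec3b ran from -0.12 (without KO replicate 1) to 0.62 and Pi16 from -0.73 to 0.00953 (without WT replicate 2), and Dcn was at -0.0723 without the libraries low in Sbp. Thy1 in Het against WT ran from -0.33 (without Het replicate 2) to 0.51, with -0.20 without WT replicate 1, and was at -0.67 without the libraries low in Sbp. The cause was not tested. Of 630 member values compared, 603 kept their sign and side of the threshold, 17 turned sign and 10 were newly called. Mfap5 in KO against WT alone turned sign in 6 of 21 alternatives. The alternatives refit the same libraries and most called 0 of all genes. Keeping the side of the threshold was then fixed in advance, so the tally is no measure of robustness.

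No paired analysis was possible because the replicate numbers only name libraries in accession order. Depth limits Mfap5 in Het libraries (13 to 77 reads), and 3 libraries per genotype limit every comparison.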

Other observations

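The gene with the pattern most like the members' score over the 9 libraries, among the tested genes outside the 10, was Cilp (r = 0.98), which encodes a matrix protein of cartilage and fibroblasts. It had 17.1, 13.5 and 7.32 CPM in KO libraries, 3.95, 5.52 and 3.81 CPM in Het libraries and 7.06, 16.6 and 10.7 CPM in WT libraries. The next were C1qa (0.98), a complement gene of macrophages, P2ry13 (0.96), Col16a1 (0.96) and Npas3 (0.96). P2ry13 and Npas3 had 0 reads in all Het libraries and at most 1.59 CPM elsewhere. For single members, genes among the 2 most alike were Col5a1 for Dcn (0.97), Vstm4 for Fbln1 (0.97), Rcn3 for Thy1 (0.99), Stab1 for Mfap5 (0.98), Dnaic1 and Ntn1 for Dpt (0.98 each), and Cilp and Gsn for Cd34 (0.96 each). These are the highest r of a search over all tested genes, over libraries that share the low Het group, and are descriptions with no test.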
